A study of Homo sapiens with 4 samples.

Results

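Cancer cells carry surface proteins that restrain the immune cells they meet. Transcript levels of 9 such genes were taken from RNA-seq of MDA-MB-231 cells, an established human line from a triple-negative breast cancer, of wild-type genotype per the labels. The genes are CD274, PDCD1LG2, CD47, CD276, PVR, NECTIN2, LGALS9, NT5E and CD44, found by symbol among the 26336 genes of the deposited table, and all 9 were tested. There were 2 libraries from cells given W23-1006, a compound known by its code name and called an inhibitor of ALKBH5 by the series, and 2 from cells given the vehicle DMSO, both for 24 h. ALKBH5 removes the methyl group of N6-methyladenosine (m6A) from RNA, and CD274 has been reported to depend on it in other tumours, so the comparison asks whether the compound alters the amount of these transcripts. Separate cultures are not stated for the libraries within a group. The p-values here therefore rest on the spread among 4 libraries, part or all of which may be technical.

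PD-L1 (encoded by CD274) and PD-L2 (PDCD1LG2) engage PD-1 on T cells and dampen their activation. CD47 binds SIRPA on macrophages and holds back engulfment, and PVR and NECTIN2 bind TIGIT, an inhibitory receptor, as well as CD226, an activating one, on T and NK cells. NT5E, also called CD73, makes adenosine outside the cell, which inhibits lymphocytes through adenosine receptors. CD44, a receptor for hyaluronan, is foremost an adhesion molecule and a marker of mesenchymal breast cancer lines.

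Sequence of CD274 is shown first, because this gene carries the question about ALKBH5 and because PD-L1 is a classical interferon-induced gene. In GRCh38.p14 the RefSeq promoter entry of CD274 holds, within 250 bases before the start, 1 match to the letters TTCNNNGAA of the STAT-binding GAS element and 2 overlapping matches to the core of the interferon-stimulated response element (ISRE), searched on both strands. Of 35116 promoter entries of the same length, 6.57% held the GAS letters, 3.02% the response element core and 0.31% both. A promoter entry was found for 8 of the 9 genes, and those of CD47, CD276, PVR, NECTIN2, LGALS9, NT5E and CD44 held 0 matches to either motif. The stretch of 200 bases below is on the plus strand (chr9:5450292-5450491), and capitals mark the matches, the overlapping response element cores first and the GAS letters second. A match describes these letters only and is no evidence of binding.
CD274 promoter: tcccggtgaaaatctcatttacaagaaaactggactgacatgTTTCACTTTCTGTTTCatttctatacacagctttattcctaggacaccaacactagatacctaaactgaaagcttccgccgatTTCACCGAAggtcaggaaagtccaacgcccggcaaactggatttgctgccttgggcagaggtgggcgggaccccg

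m6A is laid down mostly within a short sequence context of which GGACT is the commonest form, so the letters GGACT were counted in the longest protein-coding transcript of each gene (GENCODE release 29). CD274 held 2 in 3644 bases, a density of 0.549 per kb that lay above that of 23.6% of 14531 tested protein-coding genes, whose median density was 0.938 per kb. PVR held 6 (1.80 per kb), LGALS9 5 (1.61 per kb), CD276 5 (1.44 per kb), NT5E 5 (1.28 per kb), PDCD1LG2 3 (1.27 per kb), NECTIN2 3 (1.22 per kb), CD47 5 (0.957 per kb) and CD44 5 (0.872 per kb). Of the tested protein-coding genes, 92.1% held at least 1. No m6A was measured here, so these are letters and not methylated sites. The windows of the PD-1 ligand genes are given with GGACT in capitals, all on the plus strand of GRCh38, to show where the letters fall in the neighbouring genes.
CD274 window 1, coding, exon 5 of 7, chr9:5465519-5465543: ccaaatgaaaGGACTcacttggtaa
CD274 window 2, 3' untranslated, exon 7 of 7, chr9:5467968-5467992: aggcaatgtgGGACTtaaaaggccc
PDCD1LG2 window 1, coding, exon 3 of 7, chr9:5535009-5535033: gggtcgcctgGGACTacaagtacct
PDCD1LG2 window 2, 3' untranslated, exon 7 of 7, chr9:5570003-5570027: agaagcttctGGACTctgaacaaga
PDCD1LG2 window 3, 3' untranslated, exon 7 of 7, chr9:5570145-5570169: tcactgatctGGACTcacctctgga

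The libraries were alike in depth. Taking the smallest value above 0 in each as 1 read, they held 16139766 and 16497283 reads with W23-1006, and 16042345 and 15161460 with DMSO. The 7 markers of mesenchymal breast lines were all present, but at widely different levels. SPARC was the lowest, at 497 and 477 scaled reads with W23-1006, against 489 and 409 with DMSO. VIM was the highest, at 22495 and 21453 scaled reads with W23-1006, against 21063 and 21187 with DMSO. Of 12 leukocyte markers, 4 (PTPRC, CD3D, CD3E and MS4A1) had no row in the table, and the scaled counts of the 8 others summed to 77.5 and 78.1 with W23-1006, against 67.8 and 73.3 with DMSO. Of 10 luminal markers, PGR and CDH1 had no row and ESR1 stayed below 10 scaled reads, while KRT8 and KRT18 had at least 3390 scaled reads in every library. The scaled counts of the luminal markers summed to 9892 and 9376 with W23-1006, against 11355 and 10995 with DMSO. Of the 8 tested, 0 passed with limma, against 2.15% of all genes. An unadjusted limma p under 0.05 was found for 4 of the 8, against 16.7% of all genes. Limma-voom called 3 of the 8, and over all genes it also called more than limma did. With the correction for transcript GC content described below, the median log2 fold change of the luminal markers went from -0.19 to -0.046. Of these markers, 0 then had an unadjusted limma p under 0.05. Their part in the results was not tested. ALKBH5 itself had 1281 and 1242 scaled reads with W23-1006, against 1434 and 1443 with DMSO, or -0.19 on the log2 scale (SE 0.069; limma adjusted p = 0.167). After the same correction ALKBH5 was at -0.079 (limma adjusted p = 0.817).

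Levels of the 9 genes spanned more than 3 orders of magnitude. Per kb of gene length, the mean scaled count over the 4 libraries was 5358 ± 49.99 for NT5E, 974 ± 60.2 for PVR, 586 ± 46.8 for CD44, 397 ± 31.2 for CD276, 390.2 ± 30.3 for NECTIN2, 165 ± 5.46 for CD47, 75.97 ± 16.9 for CD274, 4.69 ± 2.63 for PDCD1LG2 and 0.829 ± 0.333 for LGALS9 (SD, n = 4). CD276 and NECTIN2 had overlapping ranges, as did PDCD1LG2 and LGALS9. Every other neighbouring pair in this order was separated in all 4 libraries, with gene length as deposited. That length exceeds the longest protein-coding transcript more in some genes than in others. It is 10004 against 5732 bases for CD44, but 3519 against 3325 for PVR. The separation of PVR from CD44 therefore depends on the length used. NT5E stood above 99.7% of 14608 tested protein-coding genes, CD274 above 50.8% of them and LGALS9 above 6.63%. CD274 and PDCD1LG2 are neighbours on chromosome 9, and the level of CD274 per kb was 16.2 times that of PDCD1LG2.

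**Figure D1:**
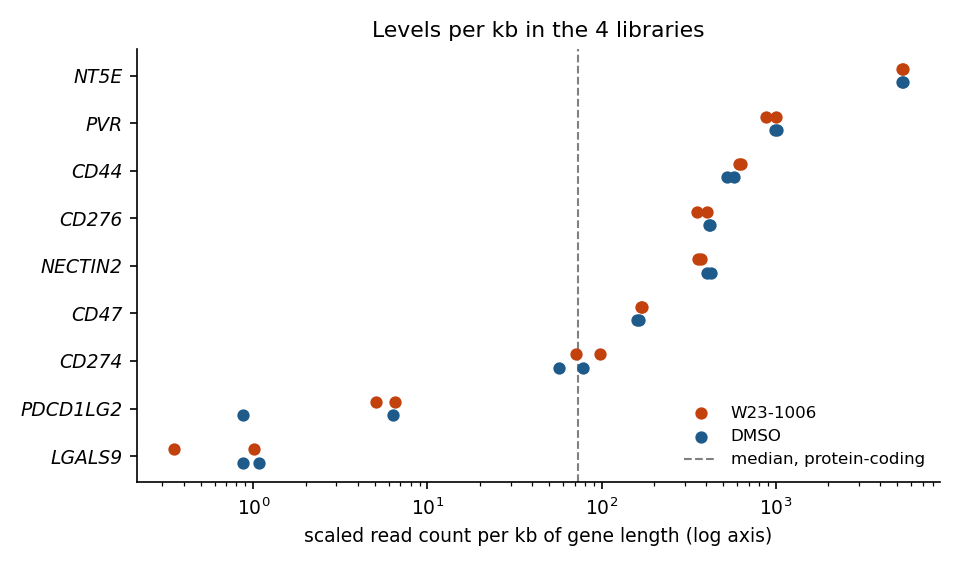
Scaled read counts per kb of gene length, on a log axis, for 9 genes in 2 libraries with W23-1006 (upper points) and 2 with DMSO (lower points), with the median of tested protein-coding genes as a dashed line. NT5E lies at the top with a mean of 5358 per kb, CD274 near the median of 73.5 per kb, and PDCD1LG2 and LGALS9 far below it.

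No gene of the 9 passed the threshold. With limma, 0 of 9 had an adjusted p under 0.05, against 2.15% of the 22486 genes tested (0.694% higher and 1.46% lower with the compound), and CD44 and NECTIN2 had an unadjusted p under 0.05, as 16.7% of all genes did. Limma-voom called 1, CD44. The groups did not overlap for CD47 and CD44, where both libraries with W23-1006 lay above both with DMSO, nor for CD276 and NECTIN2, where both lay below. These 4 of 9 compare with 47.1% of all genes tested. The median log2 fold change of the 9 genes was -0.0081 and that of all genes tested -0.011. Fold changes are differences of mean log2(scaled count + 1). The pseudocount pulls those of low genes towards 0, and at few reads such a difference can also depart from the log ratio of the group means. The intervals below are 95% limma intervals not adjusted for the number of genes. In bulk RNA, fewer cells carrying a transcript and less of it per cell cannot be told apart.

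CD274 (ENSG00000120217, chromosome 9 from 5450503 to 5470566, plus strand) had 293 and 401 scaled reads with W23-1006, against 320 and 234 with DMSO. The groups overlapped, with the highest value in one library of the compound and the lowest in one of the vehicle. The means were 347 ± 76.4 with W23-1006 and 277 ± 60.6 with DMSO (SD, n = 2 each), and the log2 fold change was 0.32 (SE 0.16; limma adjusted p = 0.341). Its interval ran from -0.024 to 0.67, or from 0.984-fold to 1.59-fold. Taken as reads, the counting error of CD274 was between 4.9% and 6.64% in each library, and the 95% exact Poisson intervals did not overlap within a group (261 to 329 and 364 to 442 with W23-1006, 286 to 357 and 205 to 267 with DMSO). Without replicate 2 of either group the log2 fold change was 0.10, and without replicate 1 of either group it was 0.55, short of the threshold each time (limma adjusted p from 0.435 to 0.894 over the 4 fits).

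PDCD1LG2 (ENSG00000197646, chromosome 9 from 5510570 to 5571254, plus strand) had 11.9 and 15.4 scaled reads with W23-1006, against 14.9 and 2.06 with DMSO. DMSO replicate 2 was low beside the other libraries, at a value that corresponds to 2 reads. PDCD1LG2 differed by 1.06 on the log2 scale (SE 0.73; limma adjusted p = 0.507), with an interval of -0.49 to 2.61, and it was -0.13 without DMSO replicate 2. The authors' deposited table lists 0.68 for PDCD1LG2.

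CD47 (ENSG00000196776, chromosome 3 from 108043094 to 108091862, minus strand) had 1385 and 1407 scaled reads with W23-1006, against 1341 and 1306 with DMSO. The libraries with the compound were both higher, by little. CD47 differed by 0.076 on the log2 scale (SE 0.069; limma adjusted p = 0.64), with an interval of 0.952-fold to 1.17-fold. CD276, which encodes the B7 family member B7-H3 (ENSG00000103855, chromosome 15 from 73683966 to 73714518, plus strand), had 2232 and 1947 scaled reads with W23-1006, against 2313 and 2308 with DMSO. Both values with the compound were lower and the DMSO libraries nearly equal. For CD276 this came to -0.15 on the log2 scale (SE 0.071; limma adjusted p = 0.31), with an interval of 0.812-fold to 1.002-fold.

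The poliovirus receptor gene PVR (ENSG00000073008, chromosome 19 from 44643798 to 44663583, plus strand) had 3517 and 3116 scaled reads with W23-1006, against 3583 and 3500.4 with DMSO. The groups overlapped, replicate 1 of the compound lying between the DMSO libraries. PVR differed by -0.097 on the log2 scale (SE 0.065; limma adjusted p = 0.49), with an interval of 0.85-fold to 1.03-fold. Its relative NECTIN2 (ENSG00000130202, chromosome 19 from 44846175 to 44889228, plus strand) had 1397 and 1341 scaled reads with W23-1006, against 1592 and 1518 with DMSO. All libraries of the compound were lower than all of the vehicle. For NECTIN2 the log2 fold change was -0.18 (SE 0.069; limma adjusted p = 0.183), with an interval of 0.795-fold to 0.976-fold before adjustment. Exons of NECTIN2 share 128 bases with the antisense gene AC011481.2, which had 0 to 0.994 scaled reads. Exons of PVR share 121 bases with CEACAM19 on the same strand, which had 17.9 to 31.9 scaled reads.

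LGALS9, the gene of galectin-9, a ligand of TIM-3 (ENSG00000168961, chromosome 17 from 27629798 to 27649560, plus strand), had 1.99 and 5.79 scaled reads with W23-1006, against 4.98 and 6.19 with DMSO. These correspond to 2 to 6 reads a library, and the groups overlapped. LGALS9 differed by -0.54 on the log2 scale (SE 0.76; limma adjusted p = 0.779), with an interval of -2.16 to 1.08, and near-identical copies of the gene (LGALS9B and LGALS9C) make even these reads uncertain. Its exons also share 294 bases with the protein-coding gene AC015688.4 on the same strand.

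NT5E (ENSG00000135318, chromosome 6 from 85449584 to 85495791, plus strand) was the most abundant of the genes, with 24432 and 24007 scaled reads with W23-1006, against 24506 and 24205 with DMSO. The values interleaved. The log2 fold change was -0.0081 (SE 0.044; limma adjusted p = 0.954), and its interval of 0.931-fold to 1.06-fold was the narrowest of the 9.

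CD44 (ENSG00000026508, chromosome 11 from 35138870 to 35232402, plus strand) came nearest to the threshold. It had 6119 and 6329 scaled reads with W23-1006, against 5757 and 5260 with DMSO, so both libraries of the compound were higher. The means were 6224 ± 148 with W23-1006 and 5508 ± 352 with DMSO (SD, n = 2 each), which differ by 0.18 on the log2 scale (SE 0.057; limma adjusted p = 0.117), with an interval of 1.04-fold to 1.23-fold before adjustment. CD44 passed with a stricter filter on low values (limma adjusted p = 0.0462) and with limma-voom (0.0333). Over its 15 alternatives the limma adjusted p ran from 0.0142 to 0.621. The antisense gene CD44-AS1 shares 84 exon bases with CD44 and had 4.82 to 17.9 scaled reads. Counts are per gene and do not separate the standard and variant forms of CD44.

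**Figure D2:**
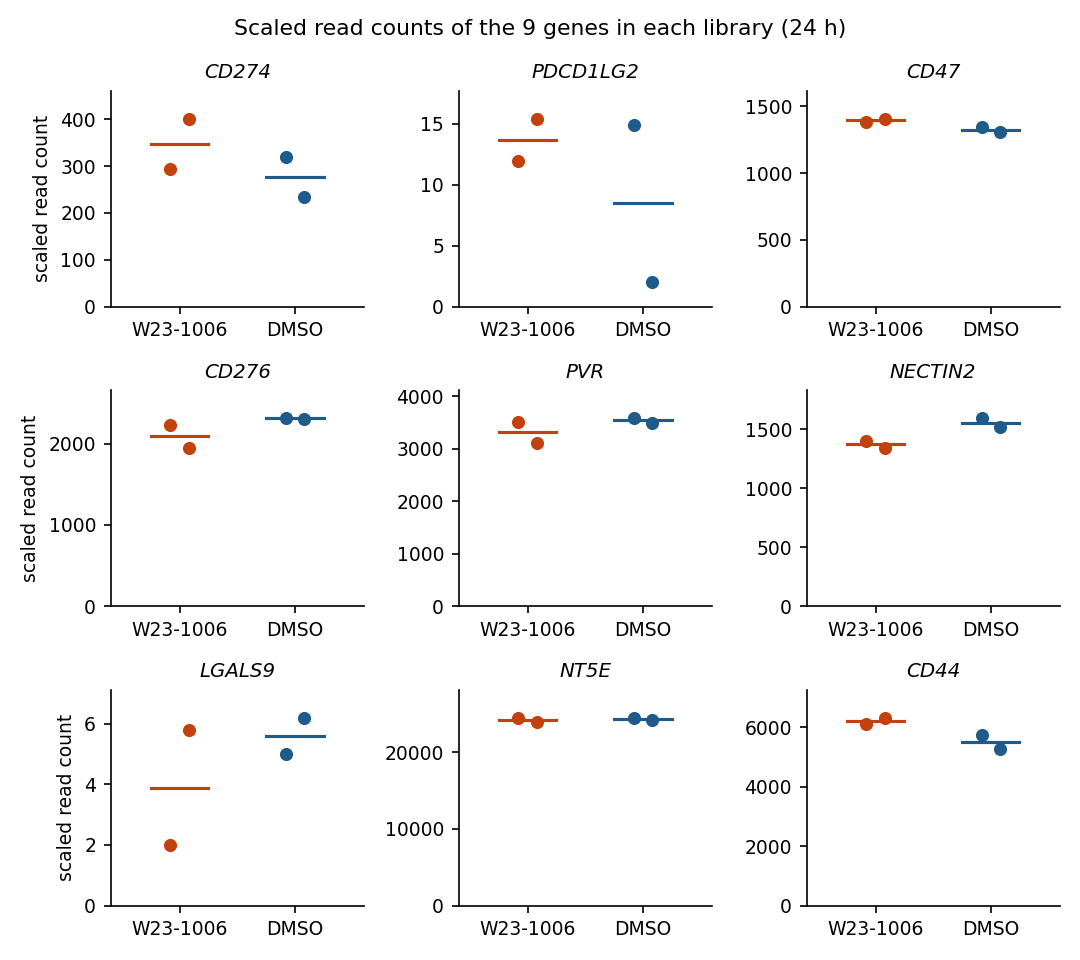
Scaled read counts of each gene (vertical axes from 0) in 2 libraries with W23-1006, left, and 2 with DMSO, right; points are libraries and lines the group means. CD44 and CD47 have both points of the compound above both of DMSO, CD276 and NECTIN2 both below, and the other 5 genes overlap.

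**Figure D3:**
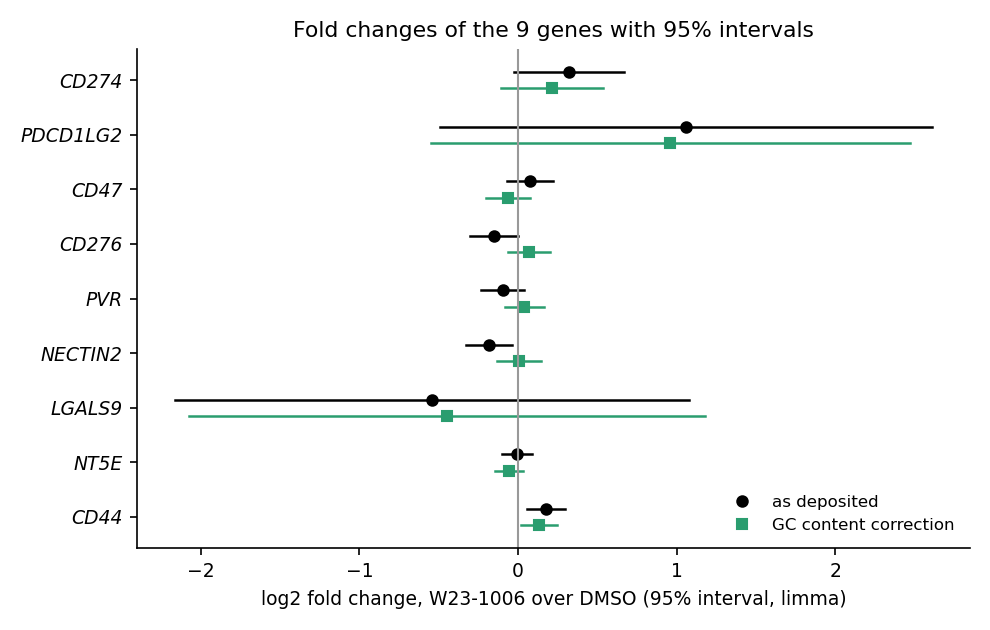
Log2 fold changes of W23-1006 over DMSO with 95% limma intervals for 9 genes, from the deposited values (black circles) and after a correction for GC content (green squares). The intervals of PDCD1LG2 and LGALS9 span more than 3 log2 units, and that of NT5E is the narrowest of the black ones.

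In the authors' deposited table CD274 is listed with a log2 fold change of 0.32, a p-value of 0.139 and an adjusted p-value of 1. That value of 1 is shared by all 18892 genes with a mean scaled count up to 380.4, whereas the 7444 genes from 380.5 upward have values under 1, and CD274, PDCD1LG2 and LGALS9 are all among the genes below that level. CD44 is listed in the authors' deposited table at a p-value of 0.00482 and an adjusted p-value of 0.0536, and NECTIN2 at 0.0472 and 0.199. The remaining 4 genes are listed there with adjusted p-values from 0.287 to 0.933.

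Transcript GC content moved with the fold changes. The libraries differed in this respect: over 12582 genes, the GC-rich decile lay below the GC-poor decile by a log2 deviation of -0.14 and -0.31 with W23-1006, whereas the same difference was 0.22 and 0.23 with DMSO. The 3 immune ligand genes with GC-rich transcripts, CD276 (61.0% GC), NECTIN2 (59.4%) and PVR (56.5%), had negative log2 fold changes, and CD47 (38.4%), CD274 (40.9%) and CD44 (45.3%) had positive ones. NT5E, with a GC content next to that of CD44 (45.2%), was at -0.0081. Over the 7 genes other than PDCD1LG2 and LGALS9, Spearman's rho between GC content and log2 fold change was -0.79, and it was -0.66 over the 12585 genes whose mean log2 value reached 5. Genes are not independent replicates, and the 4 libraries are the same for all of them. With each library's GC trend removed, the log2 fold change was 0.070 (SE 0.062) for CD276, 0.0046 (SE 0.066) for NECTIN2, 0.041 (SE 0.058) for PVR and -0.064 (SE 0.066) for CD47, all on the other side of 0 from before, and 0.13 (SE 0.053; limma adjusted p = 0.621) for CD44. CD274 stood at 0.21 (SE 0.15; limma adjusted p = 0.779), and NT5E had -0.056 (SE 0.040). With the correction 0 of the 9 genes passed (limma; 1 at an unadjusted p under 0.05), against 0.0934% of 22476 genes. GC content and exposure to the compound cannot be told apart in these 4 libraries, since the trend lies between the groups.

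**Figure D4:**
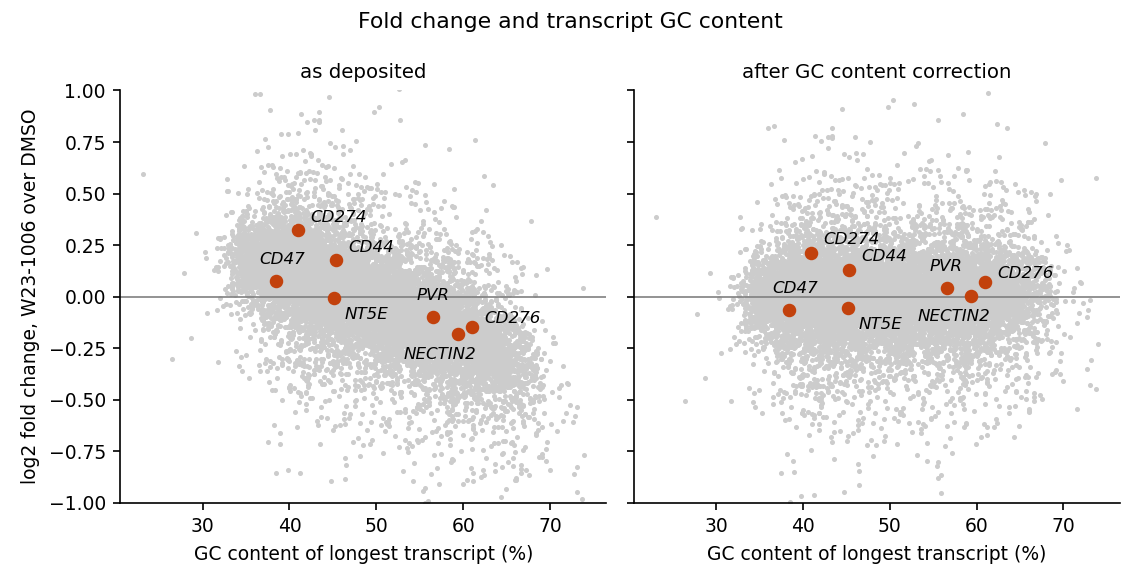
Log2 fold change of W23-1006 over DMSO against GC content of the longest transcript, for 12582 genes (grey) and 7 immune ligand genes (orange), with deposited values at left and after removal of each library's GC trend at right; 13 and 10 genes lie beyond the vertical range. CD276, NECTIN2 and PVR lie below 0 at left and slightly above it at right.

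Genes that act with these 9 were examined in 9 lists. Of the 6 genes that passed and were higher, the one with the highest log2 fold change was a CD44 partner, SRGN, a proteoglycan core protein that CD44 can bind. It had 2019 and 2151 scaled reads with W23-1006, against 1709 and 1486 with DMSO, or 0.39 on the log2 scale (SE 0.075; limma adjusted p = 0.0235). MMP14, a membrane protease that sheds CD44, fell, with 1923 and 1919.9 scaled reads with W23-1006, against 2252 and 2421 with DMSO (log2 fold change -0.28, SE 0.064; limma adjusted p = 0.0395). These were the 2 of 15 tested members that passed, against 2.15% of all genes, and the sheddases ADAM10 (0.14) and ADAM17 (0.16) did not. The median log2 fold change of the list was 0.043.

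Among nectins and their relatives 1 of 6 rose, against 0.694% of all genes. NECTIN3, an adhesion partner of PVR and NECTIN2, had 1230.1 and 1205 scaled reads with W23-1006, against 1003 and 956 with DMSO (log2 fold change 0.31, SE 0.074; limma adjusted p = 0.0429). NECTIN1 had 1103 and 935 with W23-1006, against 1234 and 1149.6 with DMSO, and did not pass (-0.23; limma adjusted p = 0.183). The median log2 fold change of these 6 genes was 0.014. Of 7 galectins, TIM-3 ligands and related genes 1 rose and 1 fell, against 0.694% and 1.46% of all genes. LGALS8 rose (0.27; limma adjusted p = 0.0453). LGALS1 fell, with 3179 and 3414 scaled reads with W23-1006, against 4043 and 4110.2 with DMSO (-0.31; limma adjusted p = 0.0232). Galectin-1, the product of LGALS1, binds glycans on T cells. HMGB1, a ligand of TIM-3, stood at 0.15 (limma adjusted p = 0.23), and the median of the list was 0.084. Of 9 other B7 and butyrophilin genes 0 passed with limma, against 2.15% of all genes. An unadjusted limma p under 0.05 was found for 0 of the 9, against 16.7% of all genes, and limma-voom called 0. BTN3A1, which acts in gamma delta T cell responses, was at 0.15, and the median was -0.011.

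Among 12 genes of CD47 and other signals to phagocytes, 2 rose, against 0.694% of all genes. The integrin subunit gene ITGAV, whose product pairs with integrin chains that CD47 associates with, had 4993 and 4788 scaled reads with W23-1006, against 4111 and 3901 with DMSO (0.29; limma adjusted p = 0.0235), and THBS1, which encodes thrombospondin-1, a ligand of CD47, stood at 0.23 (limma adjusted p = 0.0455). Calreticulin, an engulfment signal encoded by CALR, was at -0.12 (limma adjusted p = 0.19), and the median was -0.055. Of 15 genes of the adenosine pathway 0 passed with limma, against 2.15% of all genes. An unadjusted limma p under 0.05 was found for 4 of the 15, against 16.7% of all genes, and limma-voom called 1. The median was -0.19. Both libraries with W23-1006 lay below both with DMSO for 8 of the 15, against 25.0% of all genes. Some of these 8 had few scaled reads, such as CD38 (0 to 3.10), BST1 (5.79 to 9.29) and ADORA2A (5.79 to 21.9). In the whole list, 6 of the 15 had a mean scaled count of at least 100. ENTPD1, or CD39, which feeds AMP to NT5E, had 132 and 139 scaled reads with W23-1006, against 202 and 181 with DMSO (-0.49, SE 0.15; limma adjusted p = 0.109). ENPP1, another source of AMP, was at -0.19 (limma adjusted p = 0.102) and, after the GC correction, at -0.29 (limma adjusted p = 0.0725). That correction took the median of the list to -0.071, ENTPD1 to -0.58 (limma adjusted p = 0.302) and the nucleoside transporter gene SLC29A2 to -0.018, against -0.24 for SLC29A2 before it.

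Genes known to act on PD-L1 protein or on CD274 transcription were mostly short of the threshold. Of 22 regulators of the protein 1 rose, against 0.694% of all genes. It was STT3B, a catalytic subunit of the oligosaccharyltransferase that N-glycosylates proteins such as PD-L1. STT3B had 7429 and 7666 scaled reads with W23-1006, against 6585 and 6266 with DMSO (0.23; limma adjusted p = 0.0363). CMTM6, which keeps PD-L1 from lysosomal degradation, had 3971 and 4158 with W23-1006, against 3620 and 3563 with DMSO, and did not pass (0.18; limma adjusted p = 0.11). STUB1, a ubiquitin ligase that marks PD-L1 for destruction, was at -0.32 (limma adjusted p = 0.0808). The median of this list was 0.0052. Of 27 genes that feed CD274 transcription 1 fell, against 1.46% of all genes. JUN, an AP-1 subunit, had 1877 and 1848 scaled reads with W23-1006, against 2399 and 2247 with DMSO (-0.32; limma adjusted p = 0.0253). TYK2, a kinase of interferon receptors, was at -0.26 (limma adjusted p = 0.0535), the receptor gene IFNAR1 at 0.24 (limma adjusted p = 0.0847), HIF1A, an oxygen-responsive transcription factor, at 0.18 (0.0759), and the median was -0.053. Of 13 genes near CD274 and PDCD1LG2 on chromosome 9, 0 passed with limma, against 2.15% of all genes. An unadjusted limma p under 0.05 was found for 2 of the 13, against 16.7% of all genes, and limma-voom called 0.

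Over the 149 distinct genes tested from all 13 lists, without the 9 immune ligand genes, 6 rose and 3 fell, or 6.04% against 2.15% of all genes. These shares are not matched for expression level. Of all 22486 genes tested, 10602 had a mean scaled count over 100. In the lists, 24 of 27 genes that feed CD274 transcription and 20 of 22 PD-L1 regulators reached 100, but 6 of 15 adenosine genes and 0 of 5 leukocyte markers. The lists were also chosen with earlier results of these data known. After the GC correction 0 passed with limma, against 0.0934% of all genes. Of the 149 genes, 14 then had an unadjusted limma p under 0.05, a count given without its share over all genes. The genes that rose had GC-poor to intermediate transcripts, from SRGN (38.1% GC) to THBS1 (45.6%), and those that fell GC-rich ones, from JUN (56.7%) to LGALS1 (60.4%). All 9 calls were lost when any one of the 4 libraries was left out, as were all calls in the table.

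**Figure D5:**
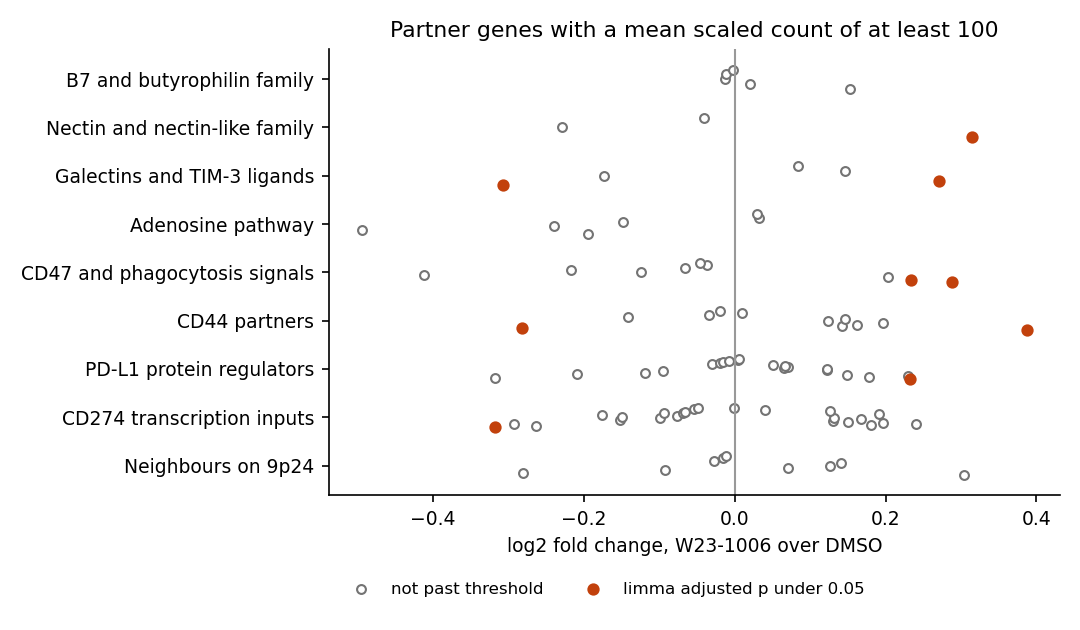
Log2 fold changes of W23-1006 over DMSO for genes of 9 partner lists with a mean scaled count of at least 100, 1 point a gene; filled points passed (limma adjusted p under 0.05). Filled points are few and lie on both sides of 0, between LGALS1 or JUN at left and SRGN at right.

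By the closeness of the log2 deviations from the gene mean over the 4 libraries, the protein-coding genes most like CD274 among 10136 with a mean scaled count of at least 100 included KIAA0391 (Euclidean distance 0.0533) and STPG1 (0.158). KIAA0391 had 159.97 and 222 scaled reads with W23-1006, against 182 and 133 with DMSO. With 4 libraries such a likeness is no evidence of shared regulation, and genes at such distances were not counted.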

How the data were processed

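Poly-A RNA was primed with random hexamers, per the labels' protocols. Upstream, the authors used DESeq2 1.20.0, featureCounts 1.5.0-p3, HISAT2 2.0.5, fastp and CASAVA with GRCh38, per the submitters' processing notes, which give no roles. Strand setting and annotation release: not given in the sources used here. The per-library values are a signal deposited by the authors, read counts scaled per library, since each is a whole multiple (within 0.001) of its column's smallest value above 0. Columns headed treatment and control were read as W23-1006 and DMSO, the only compound and the only vehicle named. The deposited table also holds the authors' log2 fold changes, p-values and adjusted p-values. Gene coordinates are those of that table, and 99.98% of genes have the same ones in GENCODE 29.

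Limma 3.58.1 (R 4.3.3) was run on log2(value + 1) for the 22486 genes averaging 1 or more. Treatment was its only term, variances were moderated along the mean trend, and two-sided p-values were adjusted by Benjamini-Hochberg over all genes tested at 0.05. A count test had been planned but the values are scaled, so none was run. An exact two-sided permutation test of 2 against 2 cannot go below 0.333. The fit was tested on simulated data. GC content is that of the longest GENCODE transcript. The GC correction subtracts, per library, a loess curve (span 0.3) of log2 deviation on GC content, drawn through genes averaging 5 or more on the log2 scale, and gene length was treated alike. Alternatives were other pseudocounts, filters and scalings, limma-voom, no trend, both corrections, a replicate block and leaving out each library.

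Named were the 9 genes, ALKBH5, list members past the threshold, up to 4 others of each list by p, and the 3 genes nearest to CD274, of which 1 is not reported here. CD96, SIRPA, CD226, CD8A, VIM and other markers were named after their values were seen. The 9 genes and the lists were chosen with earlier results of these data known. Intervals from counts cover counting error only.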

Additional observations from a re-analysis of the deposited data

How the results depend on the processing

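The count of all genes called, 484 of 22486, depended on the settings. It was 0 with a pseudocount of 0.1, without a filter on low values and without the mean-variance trend, although 3515, 3568 and 1866 genes had an unadjusted limma p under 0.05 there. It was 770 with a pseudocount of 5, 1475 with a stricter filter on low values, 826 with equal totals, 1192 with limma-voom, 774 with the gene length correction and 21 with the GC content correction. Leaving out each library in turn gave 0 calls every time in limma, while 1904 to 3112 genes had an unadjusted p under 0.05, and the lone library was assumed to vary like the others. For the 9 immune ligand genes the count was 1 with the stricter filter and with limma-voom, CD44 each time, and 0 under the other settings apart from the block. With the replicate number as a block, 1731 genes and 1 of the 9, CD44 (limma adjusted p = 0.0142), were called. Same-numbered libraries are not known to be paired, and their deviations correlated at 0.044 over 12585 genes.

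CD274 was above 0 in all 15 alternatives, at 0.098 to 0.55 with a library left out, and passed in none. The cause of the sign changes that follow was not tested. With the GC content correction the log2 fold change was 0.070 for CD276, -0.064 for CD47, 0.0046 for NECTIN2, 0.041 for PVR, 0.036 for LGALS3BP and -0.016 for RDX, and with the gene length correction 0.012 for NT5E. Over the fits that each leave out 1 library, values ran from -0.13 to 2.25 for PDCD1LG2, -1.13 to 0.049 for LGALS9, -0.021 to 0.0045 for NT5E, -0.097 to 0.016 for AFDN, -0.20 to 1.47 for CADM1, -0.089 to 0.020 for CD96, -0.81 to 1.47 for HHLA2, -0.35 to 0.17 for NCR3LG1 and -0.0068 to 0.39 for STPG1. For the 50 other genes in the tests, 619 of 741 alternatives kept direction and side of the threshold, 72 lost the call, 40 gained one and 10 changed sign. PDCD1LG2 and LGALS9 had 16 reads or fewer a library, with counting errors of 25.0% to 70.7%.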

Other observations

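CD96, a receptor for PVR that is known from T and NK cells, was abundant in these cells. It had 1819 and 1687 scaled reads with W23-1006, against 1837 and 1753 with DMSO, and no exon of another gene overlaps its exons in GENCODE release 29. Of other receptors for the 9 gene products, SIRPA, CD226 and PDCD1 had lower scaled counts than CD96. SIRPA, the receptor of CD47, had 162 and 165 with W23-1006, against 158 and 179.6 with DMSO. CD226, which binds PVR and NECTIN2, had 14.9 and 14.5 with W23-1006, against 14.9 and 15.5 with DMSO. PDCD1, which encodes PD-1, had 0 and 1.93 with W23-1006, against 0 and 2.06 with DMSO, and HAVCR2 and TIGIT had no row in the table. Among leukocyte markers CD8A stood apart from the rest, at 56.6 and 64.6 with W23-1006, against 56.8 and 54.7 with DMSO. Neither CD96 (limma adjusted p = 0.853) nor CD8A (0.865) passed.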
